A study of Mus musculus with 6 samples.

Results

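Endothelial cells line every vessel of the heart, and the 34 genes described here mark them or serve their main functions. The set comprises Pecam1, Cdh5, Kdr, Flt1, Flt4, Tek, Tie1, Egfl7, Cldn5, Emcn, Ly6c1, Gpihbp1, Aqp1, Fabp4, Cd36, Eng, Esam, Sox7, Sox17, Sox18, Vwf, Plvap, Adgrl4, Adgrf5, Cyyr1, Dach1, Robo4, Erg, Ramp2, Ecscr, Clec14a, Mmrn2, Nos3 and S1pr1. They were taken by symbol, and all 34 were found among the 55487 Ensembl gene identifiers of the count tables. The set was put together with the difference between the genotypes already known for endothelial genes in these libraries. Adgrl4, Dach1 and Cyyr1 in particular had stood out in that comparison. The differences between genotypes given here are therefore a description of the set and no evidence for it.

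RNA came from hearts of C57BL/6 mice, from non-myocyte cells enriched with magnetic beads against Cd11b, the integrin chain of myeloid cells. The WT group comprised 3 pools of Egfr f/f hearts, in which the gene of the epidermal growth factor receptor is floxed and the genotype is given as WT. The KO group comprised 3 pools of Egfr mKO hearts, with the genotype EGFR -/- restricted to myeloid cells. Each library was 1 pool of 5 or 6 hearts, so a value is an average over animals and p-values measure the spread between pools. The Cre driver, the age and the sex of the mice could not be taken from the labels.

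Endothelial identity rests on a small network of receptors and transcription factors. ETS factors such as ERG and the SOX factors of the SOX7, SOX17 and SOX18 group switch on junction and receptor genes, among them the receptors for VEGF and for the angiopoietins. The capillary endothelium of the heart also takes up fatty acids from the blood, the main fuel of cardiomyocytes, through GPIHBP1, CD36 and FABP4. Several of these genes are also expressed outside endothelium: Cd36, Fabp4, Pecam1 and Eng in macrophages or monocytes, S1pr1 in lymphocytes, Vwf in platelets and Aqp1 in red blood cells.

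Promoter windows are shown for 4 receptors of the set, because the 34 genes varied together between pools and because Erg and the SOX genes are themselves in the set. These 4 windows end before the annotated start of their gene. RefSeq promoter sequences (GRCm38.p6) were matched by symbol for 19 of the 34 genes. Each window holds the 250 bases before a start annotated by RefSeq, written on the gene's strand. For Cd36, Clec14a, Cyyr1, Egfl7, Emcn, Flt4, Kdr, Robo4 and Tie1 that start lies inside the longer GENCODE gene. Capitals mark the ETS core AGGAAG and the SOX core ACAAT, each searched on both strands (CTTCCT and ATTGT), and the pair of motifs cannot overlap each other. Flt1 lies at chr5:147726012-147726261 on the minus strand, Eng at chr2:32646345-32646594, Adgrl4 at chr3:151437632-151437881 and Tek at chr4:94739039-94739288, these 3 on the plus strand.
Flt1: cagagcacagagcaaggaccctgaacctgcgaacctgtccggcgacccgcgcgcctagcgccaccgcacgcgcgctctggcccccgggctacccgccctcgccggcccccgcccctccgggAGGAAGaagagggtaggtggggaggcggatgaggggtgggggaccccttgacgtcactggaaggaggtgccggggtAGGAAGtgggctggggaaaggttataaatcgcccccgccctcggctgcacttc
Eng: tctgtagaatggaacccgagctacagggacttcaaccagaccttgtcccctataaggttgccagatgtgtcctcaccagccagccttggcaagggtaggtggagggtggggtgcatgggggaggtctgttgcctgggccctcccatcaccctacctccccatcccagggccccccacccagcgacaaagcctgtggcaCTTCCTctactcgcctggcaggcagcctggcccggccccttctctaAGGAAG
Adgrl4: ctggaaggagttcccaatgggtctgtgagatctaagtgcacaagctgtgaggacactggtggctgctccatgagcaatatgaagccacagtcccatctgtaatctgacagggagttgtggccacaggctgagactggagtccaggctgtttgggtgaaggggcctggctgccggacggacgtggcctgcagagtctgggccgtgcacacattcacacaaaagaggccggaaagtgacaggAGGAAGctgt
Tek: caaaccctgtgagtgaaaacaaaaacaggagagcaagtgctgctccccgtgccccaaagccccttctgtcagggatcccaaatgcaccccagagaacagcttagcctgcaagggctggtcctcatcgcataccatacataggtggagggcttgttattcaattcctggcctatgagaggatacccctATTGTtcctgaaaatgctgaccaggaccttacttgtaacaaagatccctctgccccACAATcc
Flt1 and Eng each held 2 ETS cores, Adgrl4 held 1 and Tek held 0, while Tek held 2 SOX cores. These 4 are examples and were not drawn at random. Among receptors whose windows are not shown, the VEGF receptors Kdr and Flt4 held 0 cores of either kind. The first listed windows of Adgrf5, Robo4 and Tie1 held 1 ETS core each, and Robo4 also held 2 SOX cores. In the first listed window of each gene, 10 of the 19 (52.6%) held AGGAAG, against 29.2% of 27025 windows of all genes. ACAAT was in 6 of the 19 (31.6%), against 28.3% of all. The median GC content of these windows was 55.6%, against 52.0% for all. These matches describe letters in a short window and do not show binding.

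Ly6c1 needs its sequence beside its value, because a near copy is expressed in monocytes. Ly6c1 encodes a small membrane-anchored protein of endothelial and some immune cells, and Ly6c2 the closely related monocyte antigen. Their coding sequences in GENCODE M21 are both 396 bases long, differ at 9 bases and are 97.7% identical. Bases 1 to 120 from the start codon, which hold 6 of the 9 differences, are shown with the differing bases in capitals.
Ly6c1: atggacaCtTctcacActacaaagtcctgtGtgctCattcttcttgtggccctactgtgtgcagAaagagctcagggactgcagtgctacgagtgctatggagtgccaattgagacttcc
Ly6c2: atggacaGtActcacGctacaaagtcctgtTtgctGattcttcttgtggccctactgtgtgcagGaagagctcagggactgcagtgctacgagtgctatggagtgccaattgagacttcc
Of all 50-base words in Ly6c1 transcripts, 32.8% also occurred in transcripts of other genes, Ly6c2 first. Reads aligned to several places were counted apart from the genes, so the levels of Ly6c1 and Ly6c2 are uncertain. Ly6c2 was at 22.1, 18 and 11.4 CPM in the WT pools and 26.9, 18.3 and 21.3 CPM in the KO pools, with a log2 fold change of 0.37. Ly6c1 itself had a negative log2 fold change, given with the surface proteins.

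The libraries held 17780707 to 27485129 reads in genes. Levels are given as CPM, the counts relative to the library's total, with library sizes scaled by the TMM method to allow for differences in composition. Different genes are compared as TPM, which also divides by exon length. The targeted gene Egfr was at 47.5 ± 6.29 CPM in WT pools and at 17.3 ± 1.29 CPM in KO pools (SD over the 3 pools of a group). In edgeR Egfr fell by 1.46 on the log2 scale (adjusted p = 0.0449). Itgam, which encodes Cd11b, was at 84.4 to 141 CPM in WT pools and at 120 to 176 CPM in KO pools. The 14 macrophage markers summed to 8191 to 15670 CPM, against 3545 to 9323 CPM for the 34 endothelial genes. Reads of the 34 genes made up 0.583%, 0.676% and 0.938% of gene reads in the WT pools and 0.338%, 0.370% and 0.454% in the KO pools. Endothelial transcripts were thus part of a preparation enriched for myeloid cells, and the defining genes Cdh5, Kdr and Pecam1 were present in every pool. In such bulk samples, fewer endothelial cells and less RNA per cell cannot be told apart.

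**Figure D1:**
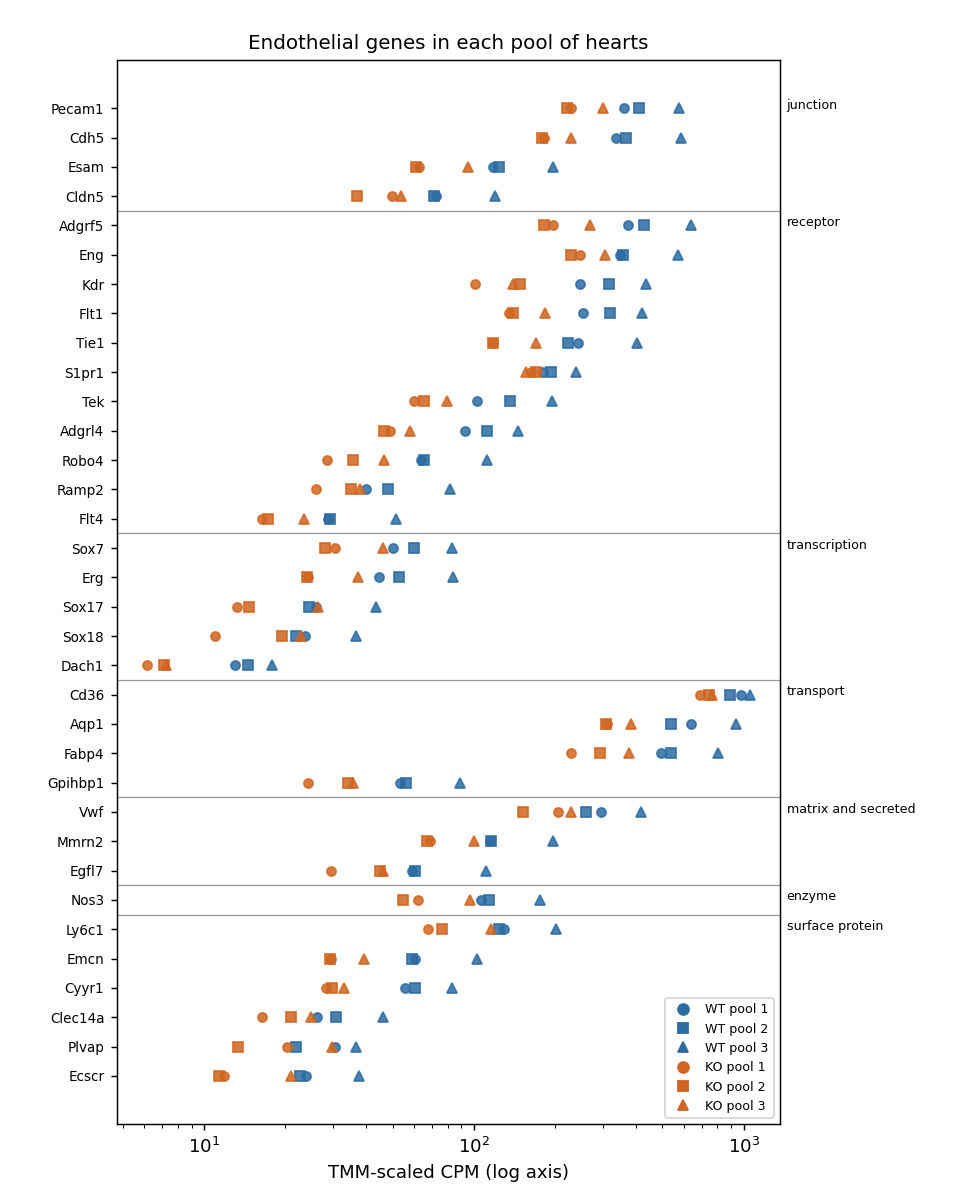
Level of each of the 34 genes in each pool, as TMM-scaled CPM on a log axis, grouped by role, with WT pools in blue, KO pools in orange and 1 marker shape per replicate number. WT pool 3 is the highest pool for all 34 genes, and for 31 genes every KO point lies left of every WT point.

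All 34 genes passed the filter on low counts, and the least read, Dach1, still had 161 counts in its lowest library. Per transcript length, Cd36 and Aqp1 were the most abundant in WT, at 906 ± 83.5 and 895 ± 271 TPM (SD, n = 3). Next came Fabp4 (456 ± 136 TPM), Eng (352 ± 113 TPM) and Cdh5 (344 ± 118 TPM). The lowest were Sox17 (21.96 ± 7.82 TPM), Flt4 (14.9 ± 5.51 TPM) and Dach1 (6.95 ± 1.43 TPM). Along this order the neighbours mostly overlapped: in only 3 of 33 neighbouring pairs did the WT pools separate, namely Aqp1 from Fabp4, Emcn from Clec14a and Flt4 from Dach1. In KO the order began with the same 4 genes, Cd36, Aqp1, Fabp4 and Eng, at 644 ± 45.7, 400 ± 55.4, 211 ± 55.1 and 204 ± 33.2 TPM.

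The genes varied together among pools of one genotype. WT pool 3 was the highest of all 6 pools for all 34 genes, and the lowest WT pool was pool 1 for 23 genes and pool 2 for 11. Among KO pools, pool 3 was highest for 32 genes, with Kdr and S1pr1 highest in pool 2. The median coefficient of variation was 29.3% over WT pools and 20.2% over KO pools. Cd36 varied least in WT (8.29%) and Ramp2 most (39.3%).

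The difference between genotypes had the same sign throughout. All 34 genes had a negative log2 fold change in KO against WT, from -1.36 to -0.32, with a median of -0.94, while the median over all 15707 genes tested was 0.0072 and 49.2% of genes were negative. For 31 genes all KO pools were lower than all WT pools, and for Sox17, Sox18 and Plvap the pools overlapped. That pattern occurred in 10.1% of all genes tested. The fold changes were close together, with 28 of 34 within 0.25 of the median on the log2 scale. The median KO level was 52.2% of the WT level.

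In edgeR's quasi-likelihood test over all genes, 0 of the 34 passed an adjusted p of 0.05, and the background was 0.0127% of genes called lower. Adjusted p-values of the 34 ranged from 0.148 to 0.482. At an unadjusted p under 0.05 there were 32 of the 34, all lower in KO, against 10.6% of all genes. Limma-voom called 0 (background 0.00637%). DESeq2 called 26 of the 34 lower (background 4.5%), and edgeR without its expression filter also called 26 (background 2.22%). Without WT pool 1, edgeR with its filter called 20 lower (background 5.97%). The same 20 genes were called in all 3 of these settings, and Clec14a, Plvap, Ramp2, S1pr1, Sox17 and Sox18 were called in none. Without WT pool 3, the highest pool, the median log2 fold change was -0.65. Leaving it out moved 10 genes by over 1.5 times: Ramp2 to -0.41, Eng to -0.43, Egfl7 to -0.57, Flt4 to -0.61, Mmrn2 to -0.55, Clec14a to -0.45, Sox17 to -0.47, Sox18 to -0.36, S1pr1 to -0.19 and Plvap to -0.31. Plvap was at -0.24 without KO pool 2 and -0.83 without KO pool 3, and Sox18 at -0.37 without KO pool 1.

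**Figure D2:**
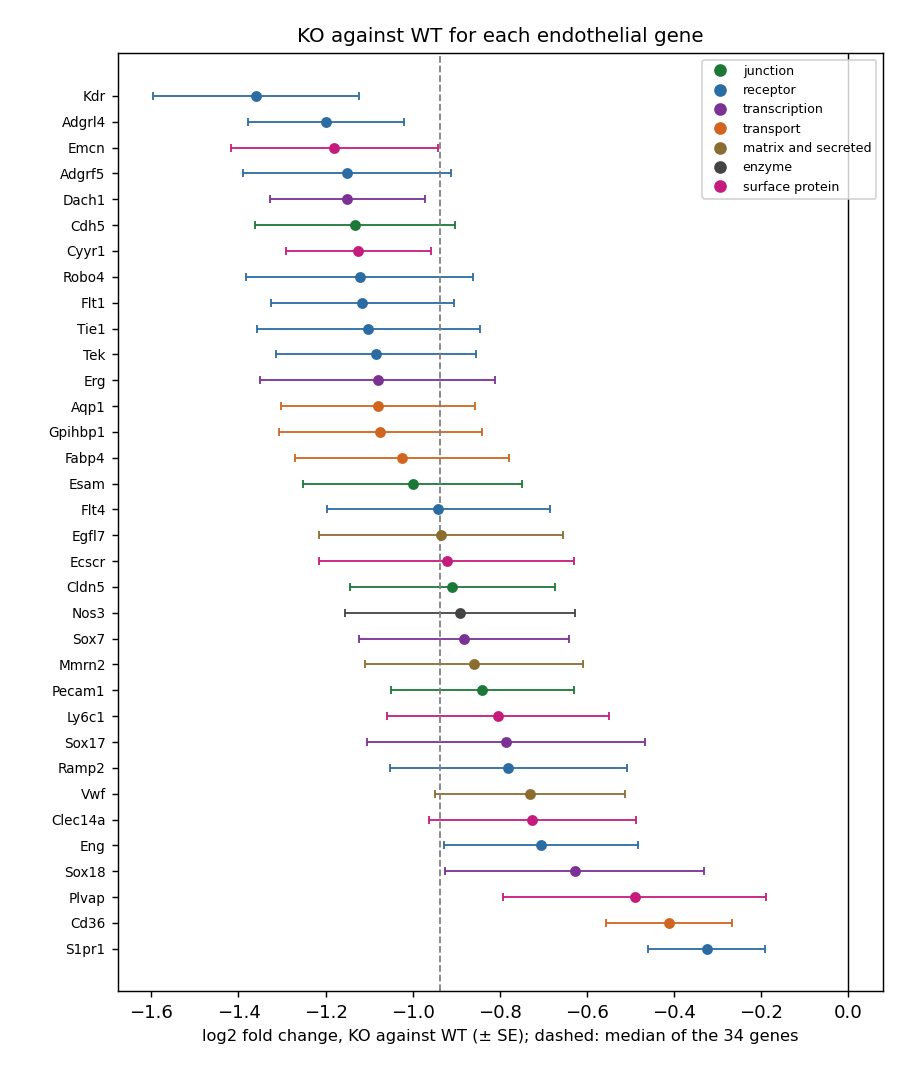
Log2 fold change of KO against WT for each of the 34 genes, with bars of 1 SE and colours for roles. Every point lies left of 0, Kdr lies lowest at -1.36 and S1pr1 nearest to 0 at -0.32, and the dashed line is the median of -0.94.

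The receptors for VEGF, the main growth factor of endothelium, held the lowest value of the set. Kdr (ENSMUSG00000062960, chromosome 5, 75932827 to 75978458, minus strand of GRCm38), the principal signalling VEGF receptor, was at 247, 317 and 437 CPM in WT pools and at 101, 149 and 140 CPM in KO pools. The log2 fold change of Kdr was -1.36 (SE 0.24). The lowest WT pool was 1.66 times the highest KO pool. Flt1, a VEGF receptor that also acts as a decoy, was at 254, 320 and 419 CPM in WT pools and at 135, 140 and 183 CPM in KO pools (log2 fold change -1.12, SE 0.21). Flt4, the receptor for VEGF-C that is best known from lymphatic vessels, was at 28.9, 29.3 and 51.3 CPM in WT pools and at 16.4, 17.2 and 23.4 CPM in KO pools (log2 fold change -0.94, SE 0.26). All 3 receptors had every KO pool below every WT pool, against 10.1% of all genes tested.

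Tek encodes the receptor TIE2, which angiopoietins bind, and Tie1 its partner. Tek was at 103, 136 and 194 CPM in WT pools and at 59.9, 65.1 and 79.5 CPM in KO pools (log2 fold change -1.08, SE 0.23). Tie1 was at 244, 224 and 402 CPM in WT pools and at 118, 117 and 170 CPM in KO pools (log2 fold change -1.10, SE 0.26). The highest KO pool stayed below the lowest WT pool for both, against 10.1% of all genes tested.

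Other receptors spread more widely. The adhesion receptors Adgrl4 and Adgrf5, the former an endothelial regulator of sprouting, had log2 fold changes of -1.20 (SE 0.18) and -1.15 (SE 0.24). Adgrl4 was at 92.8, 112 and 146 CPM in WT pools and at 48.7, 46.3 and 57.8 CPM in KO pools. Robo4, a guidance receptor that stabilises vessels, had -1.12 (SE 0.26), and Ramp2, which pairs with the adrenomedullin receptor, -0.78 (SE 0.27). Eng (endoglin), a co-receptor for BMP9, was at 348, 356 and 572 CPM in WT pools and at 248, 229 and 305 CPM in KO pools (log2 fold change -0.70, SE 0.22). S1pr1 (ENSMUSG00000045092, chromosome 3, 115710433 to 115715072, minus strand), the receptor for sphingosine 1-phosphate, was at 180, 193 and 240 CPM in WT pools and at 163, 170 and 156 CPM in KO pools. Its log2 fold change of -0.32 (SE 0.13) was the nearest to 0, and its lowest WT pool was only 1.06 times its highest KO pool.

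Junction genes hold neighbouring endothelial cells together. Cdh5 (ENSMUSG00000031871, chromosome 8, 104101625 to 104144511, plus strand) encodes VE-cadherin, the adhesion molecule of the adherens junction. Cdh5 was at 338, 367 and 588 CPM in WT pools and at 182, 179 and 229 CPM in KO pools (log2 fold change -1.13, SE 0.23). Pecam1, the adhesion molecule CD31, which leukocytes also carry, was at 360, 410 and 575 CPM in WT pools and at 229, 221 and 301 CPM in KO pools (log2 fold change -0.84, SE 0.21). Cldn5, the tight junction claudin of endothelium, had -0.91 (SE 0.24) and Esam, an endothelial adhesion molecule, -1.0 (SE 0.25). None of the 4 overlapped between genotypes.

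Among the transcription factors the fold changes ran from -1.15 to -0.63. Erg, an ETS factor that maintains endothelial identity, was at 44.5, 52.9 and 84.0 CPM in WT pools and at 24.3, 24.2 and 37.3 CPM in KO pools (log2 fold change -1.08, SE 0.27). Dach1, a regulator of coronary artery growth, was at 13.01, 14.6 and 17.9 CPM in WT pools and at 6.15, 7.11 and 7.22 CPM in KO pools. It had a log2 fold change of -1.15 (SE 0.18), and its lowest WT pool was 1.80 times its highest KO pool, the widest gap of the 34. The SOX genes had fold changes nearer to 0 and were less separated. Sox7 had -0.88 (SE 0.24) with no overlap. Sox17 was at 26.0, 24.4 and 43.5 CPM in WT pools and at 13.3, 14.6 and 26.6 CPM in KO pools (log2 fold change -0.79, SE 0.32). Sox18 was at 23.7, 22 and 36.7 CPM in WT pools and at 11, 19.5 and 22.9 CPM in KO pools (log2 fold change -0.63, SE 0.30). KO pool 3 lay above WT pools 1 and 2 for Sox17 and above WT pool 2 for Sox18. An antisense gene covers 16.8% of the exon bases of Sox17, and while the library kit keeps the strand of the RNA, no source used here gives the strand setting of the counting.

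Transport genes of the capillary bed were split between Cd36 and the rest. Gpihbp1, which carries lipoprotein lipase to the vessel lumen, was at 53.3, 56.0 and 88.8 CPM in WT pools and at 24.2, 34.1 and 35.8 CPM in KO pools (log2 fold change -1.07, SE 0.23). Fabp4, a fatty acid binding protein, was at 494, 537 and 801 CPM in WT pools and at 230, 295 and 376 CPM in KO pools (log2 fold change -1.03, SE 0.25). Aqp1, a water channel, was at 640, 538 and 935 CPM in WT pools and at 311, 308 and 381 CPM in KO pools (log2 fold change -1.08, SE 0.22). These 3 genes stood at 47.3% to 49.1% of their WT level. Cd36 (ENSMUSG00000002944, chromosome 5, 17781690 to 17888801, minus strand), a fatty acid and scavenger receptor shared with macrophages, was at 974, 894 and 1055 CPM in WT pools and at 690, 746 and 763 CPM in KO pools. Its log2 fold change was -0.41 (SE 0.14), and its KO level was 75.2% of WT.

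Of the secreted proteins, Egfl7, an endothelial matrix factor, had a log2 fold change of -0.93 (SE 0.28) and Mmrn2, a matrix glycoprotein, -0.86 (SE 0.25). Vwf, the clotting factor stored in endothelial granules and in platelets, was at 297, 261 and 416 CPM in WT pools and at 205, 153 and 229 CPM in KO pools (log2 fold change -0.73, SE 0.22). The genotypes did not overlap for these 3. Nos3, the endothelial nitric oxide synthase, was at 107, 114 and 176 CPM in WT pools and at 62.3, 54.6 and 96.9 CPM in KO pools (log2 fold change -0.89, SE 0.26). Genes on the opposite strand cover 32.3% of the Nos3 exon bases. For Ramp2, the same-strand gene Vps25 covers 33.4%.

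Surface proteins ranged from -1.18 to -0.49. Emcn (endomucin), a sialomucin of capillary and venous endothelium, was at 60.4, 58.8 and 103 CPM in WT pools and at 29.5, 29.3 and 39.2 CPM in KO pools (log2 fold change -1.18, SE 0.24). Ly6c1 was at 129, 124 and 202 CPM in WT pools and at 67.8, 76.4 and 116 CPM in KO pools (log2 fold change -0.80, SE 0.26). Cyyr1 had -1.12 (SE 0.17), Ecscr, an endothelial surface regulator of chemotaxis, -0.92 (SE 0.29) and Clec14a, an endothelial lectin-like receptor, -0.73 (SE 0.24). Plvap, which forms the diaphragms of fenestrae and caveolae, was at 30.5, 21.8 and 36.6 CPM in WT pools and at 20.2, 13.3 and 29.8 CPM in KO pools (log2 fold change -0.49, SE 0.30). KO pool 3 lay above WT pool 2 for Plvap, and this was the widest overlap of the 34.

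Dividing each gene by Cdh5 within the same pool shows how the composition of the endothelial signal varied, apart from its size. Relative to Cdh5, 14 of the other 33 genes had a mean KO ratio within 10% of the mean WT ratio. Flt1 was at 0.750, 0.870 and 0.713 of Cdh5 in WT and 0.743, 0.780 and 0.800 in KO, and Tie1 at 0.722, 0.611 and 0.684 in WT and 0.650, 0.655 and 0.743 in KO. Their pools were mixed. For 8 genes every KO ratio lay above every WT ratio, namely Pecam1, Flt4, Cd36, Eng, Ramp2, Clec14a, Mmrn2 and S1pr1, and for 0 genes every KO ratio lay below. Over all genes tested, 74.3% had every KO ratio to Cdh5 above every WT ratio. Cdh5 itself had a log2 fold change of -1.13, lower than the median of -0.94 over the 34 genes. Genes with a smaller fall than Cdh5 thus tend to higher KO ratios through the choice of the divisor. Shares over all genes were not counted for ratios below or within 10%. S1pr1 was at 0.533, 0.524 and 0.407 of Cdh5 in WT and 0.894, 0.950 and 0.682 in KO, a mean ratio 1.72 times as high. Cd36 was at 2.88, 2.43 and 1.79 times Cdh5 in WT and 3.79, 4.16 and 3.34 times in KO, a mean ratio 1.59 times as high. Both genes are also expressed by immune cells, whose part in these ratios was not tested. Kdr had the lowest relative value, 0.855 times its WT ratio, with overlapping pools.

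**Figure D3:**
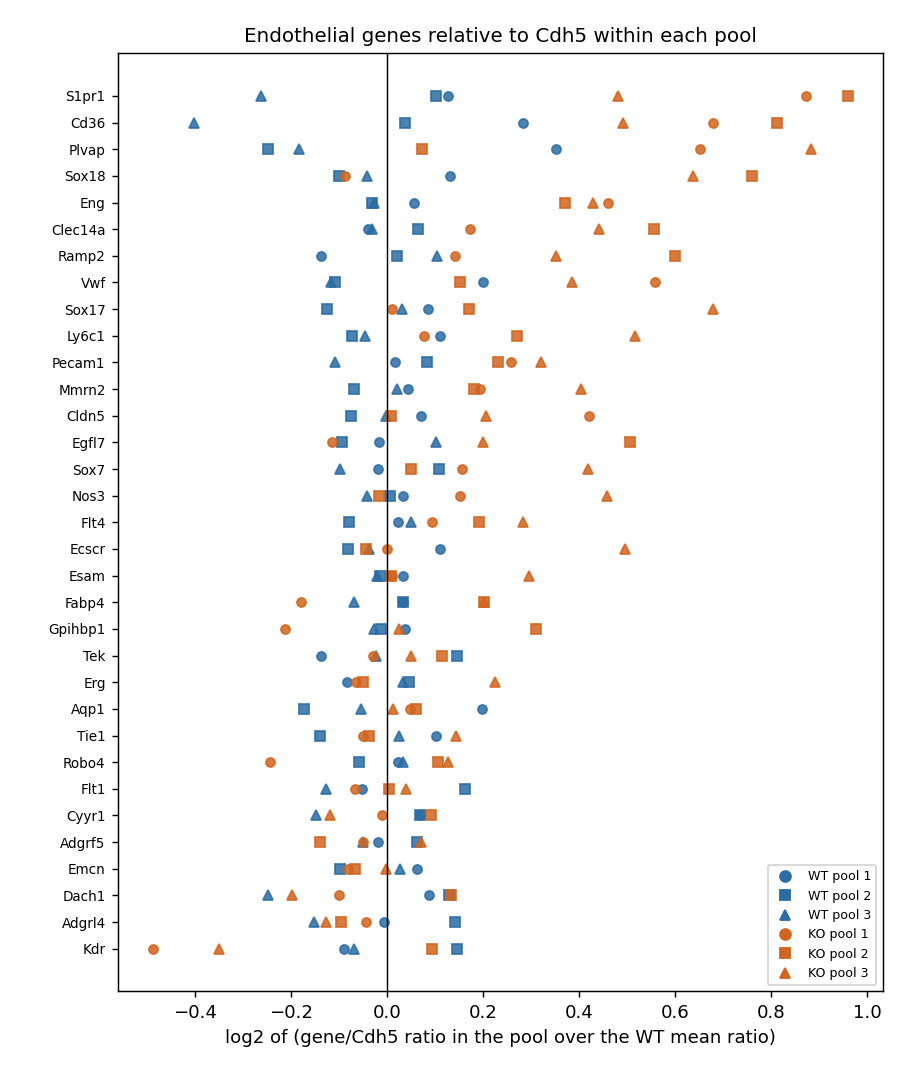
Each gene's ratio to Cdh5 in each pool, as log2 of that ratio over the mean WT ratio, ordered by the KO to WT ratio. WT pools (blue) and KO pools (orange) are mixed for most genes, and KO pools lie to the right for S1pr1, Cd36 and Eng.

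Vessels differ along their length, and lists of genes for arteries, capillaries, veins, lymphatics and endocardium were read beside the set. In edgeR's test 0 genes of these lists and of the pathway lists passed an adjusted p of 0.05, so their values are given as counts and medians. Of the genes that are not among the 34, DESeq2 called 8 of 12 capillary, 6 of 11 tip cell, 5 of 17 arterial, 1 of 10 venous, 1 of 8 lymphatic and 1 of 5 endocardial genes lower and 0 higher, against 4.5% of all genes lower. In edgeR at an unadjusted p under 0.05 the counts were 10, 9, 11, 3, 3 and 2, all lower, against 10.6% of all genes. The capillary list had the lowest median, -0.997 over 18 genes, of which 17 were negative and 16 had every KO pool below every WT pool. It includes 6 of the 34 genes (Gpihbp1, Fabp4, Cd36, Aqp1, Kdr and Ly6c1), and its 12 other genes had a median of -0.92. Among these, Btnl9, a butyrophilin-like protein, was at 79.7 ± 23.8 CPM in WT pools and at 31.03 ± 8.09 CPM in KO pools (SD, n = 3; log2 fold change -1.36, SE 0.27). Car4, a carbonic anhydrase on the luminal surface, had -1.16, Rbp7, a retinol-binding protein, -1.07 and Cd300lg, a capillary surface receptor, -0.99. The tip cell list of sprouting endothelium, with no gene of the 34, had a median of -0.996 over 11 genes, of which 10 were negative. Lama4, a laminin chain of the vessel basement membrane, lay lowest there at -1.27, and Pgf, a VEGF family ligand, had -1.07. In the WT pools Lama4 was at 133, 223 and 333 CPM, and in the KO pools at 103, 90.1 and 93.4 CPM. The part of fibroblasts and mural cells in the tip cell values was not tested.

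Arterial genes lay nearer to 0. All 18 were negative, with a median of -0.63, and 12 had every KO pool below every WT pool, against 10.1% of all genes. The Notch ligand Dll4 was at 103 ± 31.1 CPM in WT pools and at 51.4 ± 16.3 CPM in KO pools (SD, n = 3; log2 fold change -1.01, SE 0.27). Unc5b, a netrin receptor, had -1.03, the transcription factor Mecom -1.02 and the receptor Notch4 -0.87. Sox17 is the only gene of the 34 on this list.

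Venous genes were mixed. Of 13 genes 8 were negative, with a median of -0.49, and 3 of the 13 (Vwf, Plvap and Emcn) belong to the 34. The 10 others were split into 5 negative and 5 positive, with a median of -0.07 (-0.28 without KO pool 1 and 0.05 without WT pool 3). The vein-specifying factor Nr2f2 had a log2 fold change of -0.70, the ephrin receptor Ephb4 -0.68, the interleukin 1 receptor Il1r1 -0.74 and the leukocyte adhesion molecule Sele -0.71. The 5 positive genes, named after their values were seen, were Vcam1 at 0.04 (SE 0.22), Tmem252 at 0.06 (SE 0.51), Ackr1 at 0.18 (SE 0.51), Selp at 0.26 (SE 0.20) and Lrg1 at 0.41 (SE 0.46). Of these, Ackr1 and Tmem252 had means of only 1.77 and 4.51 CPM over all pools. Which cells of the preparation the reads of these 5 genes came from was not tested. The lymphatic list had 9 of 10 genes negative, with a median of -0.64. Mmrn1, a matrix protein of lymphatic endothelium, had -1.06 and Sema3d, a guidance cue, -1.04. The 1 positive lymphatic gene was Lyve1 at 0.50, a hyaluronan receptor that resident macrophages also carry, named after its value was seen. Endocardial genes numbered 6, of which 4 were negative, with a median of -0.52, and Npr3, a natriuretic peptide receptor, had -1.05. Cytl1 had -0.65, Tmem108 -0.54 and the adhesion receptor Adgrg6 0.31, and the other positive gene was Nfatc1 at 0.09. Single pools moved these medians: without WT pool 3 they were -0.73 for capillary, -0.65 for tip cell, -0.40 for arterial and -0.42 for lymphatic genes, and without KO pool 2 they were -0.24 for venous and -0.25 for endocardial genes. Differences between the lists were not tested.

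**Figure D4:**
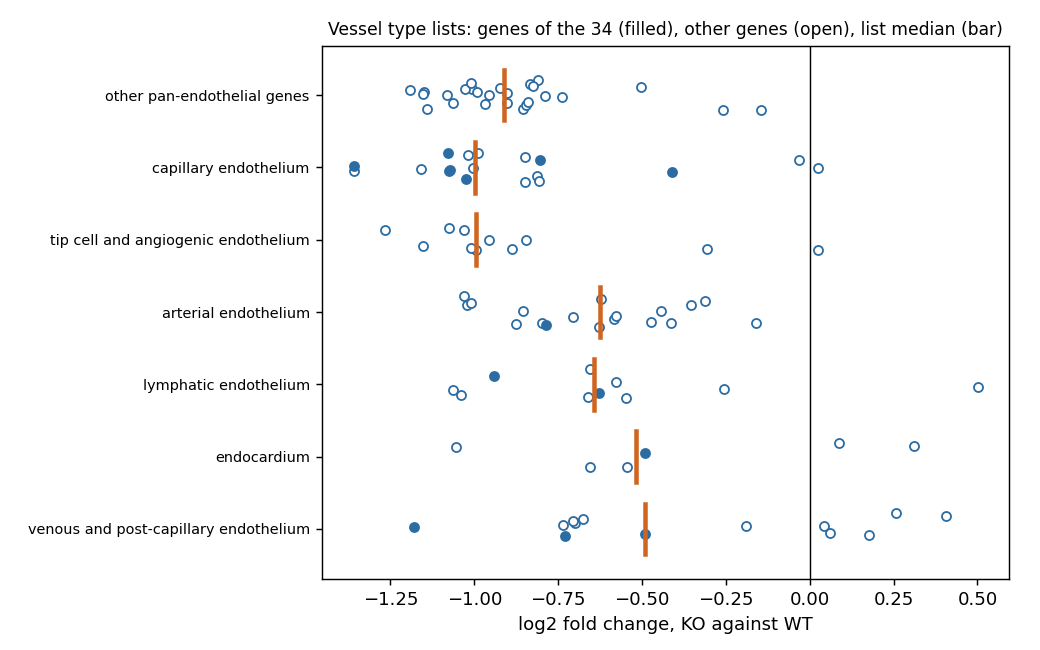
Log2 fold change of KO against WT for each tested gene of 7 vessel type lists, with filled points for genes of the 34, open points for others and an orange bar for the list median. Capillary and tip cell medians lie at -0.997 and -0.996, the arterial median at -0.63 and the venous median at -0.49, with 5 venous points right of 0.

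A further list of 26 pan-endothelial genes, none of them among the 34, had 26 negative values with a median of -0.91, and 23 had every KO pool below every WT pool. DESeq2 called 20 of the 26 lower, against 4.5% of all genes. EdgeR called 0, with 24 lower at an unadjusted p under 0.05, against 10.6% of all genes. Ptprb, the endothelial phosphatase that restrains TIE2, was at 392 ± 78.7 CPM in WT pools and at 185 ± 16.2 CPM in KO pools (SD, n = 3; log2 fold change -1.08, SE 0.17). Prex2 had -1.15, the scaffold gene Shank3 -1.06 and Heg1, a partner of the junction complex, -0.81. This list was also drawn up with earlier results of these libraries known.

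Ligands and partners of the receptors above were read next, with 0 calls in edgeR. Of the genes that are not among the 34, DESeq2 called 1 of 7 VEGF, 2 of 5 Tie, 3 of 10 Notch, 0 of 12 BMP9, 1 of 8 sphingosine, 1 of 5 adrenomedullin, 4 of 8 nitric oxide, 4 of 17 transcription factor, 4 of 10 junction and 1 of 8 lipid transport genes, all lower, against 4.5% of all genes. In edgeR at an unadjusted p under 0.05, in the same order, 2, 3, 6, 7, 3, 3, 7, 7, 6 and 2 genes were lower, against 10.6% of all genes, and 1 sphingosine gene and 1 transcription factor were higher, against 4.77%. Among VEGF genes 9 of 10 were negative, with a median of -0.68, and the 7 that are not of the 34 had a median of -0.31 (-0.16 without WT pool 3). The ligand Vegfc had -0.72 and the co-receptor Nrp1 -0.31. In the angiopoietin and Tie pathway all 7 genes were negative, with a median of -1.08, and the 5 that are not of the 34 had -0.85 (-0.48 without WT pool 3). Angpt2, the angiopoietin released by endothelium, had -0.85 and Angpt1, the agonist made largely by mural cells, -0.56. All 10 Notch pathway genes were negative, with a median of -0.59, and Jag2, a Notch ligand, had -0.77 and Notch1 -0.41.

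Around Eng, 12 of 13 genes of the BMP9 and ALK1 pathway were negative, with a median of -0.54. The type II receptor Bmpr2 had -0.56 and the target gene Id1 -0.65. Acvrl1, which encodes ALK1 and was named after its value was seen, had only -0.16 (SE 0.15), with overlapping pools. Around S1pr1, 6 of 9 genes of the sphingosine 1-phosphate pathway were negative, with a median of -0.55. The transporter Spns2, which exports the lipid from endothelium, had -0.73, the receptor S1pr3 -0.70, the phosphatase Plpp3 -1.04 and the kinase Sphk2 0.37. Around Ramp2, all 6 adrenomedullin genes were negative, with a median of -0.64. The receptor Calcrl had -0.50, the ligand Adm -0.88 and Ackr3 -0.89. Ramp1 had only -0.055 (SE 0.17) and Ramp3, named after its value was seen, -0.051 (SE 0.21), both with overlapping pools. Around Nos3, all 9 nitric oxide pathway genes were negative, with a median of -0.82, and the caveolar genes Cav1, Cavin1 and Cavin2 had -0.96, -0.94 and -0.92.

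Around the junction genes, 12 of 14 were negative, with a median of -0.83. The 10 that are not of the 34 had a median of -0.49 (-0.27 without WT pool 3), with 8 negative. The tight junction scaffold Tjp1 had -1.11, Jam3 -1.08 and Jam2 -0.99. Of 21 endothelial transcription factors 16 were negative, with a median of -0.63, and the 17 that are not of the 34 had a median of -0.39 (-0.20 without WT pool 2). Bcl6b had -1.01, the hypoxia factor Epas1 -0.97 and Gata2 -0.90. The 5 positive factors, named after their values were seen, were Tal1 at 0.045, Ets2 at 0.08, Fli1 at 0.12, Klf2 at 0.24 and Lyl1 at 0.48. Among them, Klf2 and Ets2 had means of 1055 and 664 CPM over all pools. Which cells of this preparation the reads of these 5 factors came from was not tested, so the medians need not describe endothelium alone. Of 11 lipid transport genes 7 were negative, with a median of -0.33, and the 8 that are not of the 34 had a median of -0.05 (-0.18 without KO pool 2). Angptl4, an inhibitor of lipoprotein lipase, had -0.88, while Fabp5 had -0.33 and the fatty acid transporter Slc27a4 0.35. Without WT pool 3 the medians were -0.35 for VEGF, -0.26 for BMP9, -0.40 for adrenomedullin, -0.38 for transcription factor and -0.12 for lipid transport genes, and without KO pool 3 the sphingosine median was -0.30.

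Markers of other cell types differed between pools as well. The 14 mural cell genes, of pericytes and vascular smooth muscle, summed to 2664, 3265 and 4378 CPM in WT pools and 1947, 1650 and 2465 CPM in KO pools. All 14 were negative, with a median of -0.81, and Abcc9, a pericyte potassium channel subunit, had -1.44. The 14 fibroblast genes summed to 4785, 9880 and 15330 CPM in WT pools and 5638, 4923 and 4101 CPM in KO pools, so WT pool 1 lay within the KO range. All 14 were negative, with a median of -1.10. Yet only 2 had every KO pool below every WT pool, a pattern found in 10.1% of all genes tested. Without WT pool 3 the fibroblast median was -0.63. In edgeR 0 mural or fibroblast genes were called. At an unadjusted p under 0.05, 12 and 14 were lower, against 10.6% of all genes. DESeq2 called 9 and 5 lower, against 4.5% of all genes. The fibroblast sum of WT pool 3 was the highest, as was the endothelial sum.

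The 14 macrophage genes summed to 15010, 8191 and 10090 CPM in WT pools and 14860, 14830 and 15670 CPM in KO pools. All 14 had positive fold changes, with a median of 0.46 (0.75 without WT pool 1, 0.29 without WT pool 2). In edgeR 0 macrophage genes were called, 4 were higher at an unadjusted p under 0.05, against 4.77% of all genes. DESeq2 called 0 higher, against 1.16%, and edgeR without WT pool 1 called 8 higher, against 2.33%. The macrophage and fibroblast sums of WT pool 1 lay within the range of the KO pools. The summed platelet genes overlapped between genotypes at 513 to 731 CPM in WT pools and at 585 to 706 CPM in KO pools, Vwf included. Pf4 and Vwf carried this sum, with means of 343 and 260 CPM over all 6 pools. The overlap of the sums therefore describes mainly these 2 genes, and Vwf belongs to the endothelial set. Pf4 was at 377, 199 and 248 CPM in WT pools and at 346, 435 and 450 CPM in KO pools. Whether the reads of Pf4 and Vwf came from platelets was not tested. The other tested platelet genes had means from 0.671 to 20.2 CPM, and the platelet glycoprotein Gp1bb was at 0 in all 6 libraries. Of 9 tested platelet genes 8 were negative, with a median of -0.58 (-0.16 without WT pool 1). DESeq2 called 2 of them lower, against 4.5% of all genes. The chemokine Pf4 had 0.58, and the integrin chains Itga2b and Itgb3 had -1.003 and -0.53. Erythroid genes without Aqp1 summed to 1881, 75.8 and 142 CPM in WT pools and 36.2, 59.3 and 85 CPM in KO pools, and WT pool 1 stood apart. The part of these cell types in the endothelial values was not tested.

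**Figure D5:**
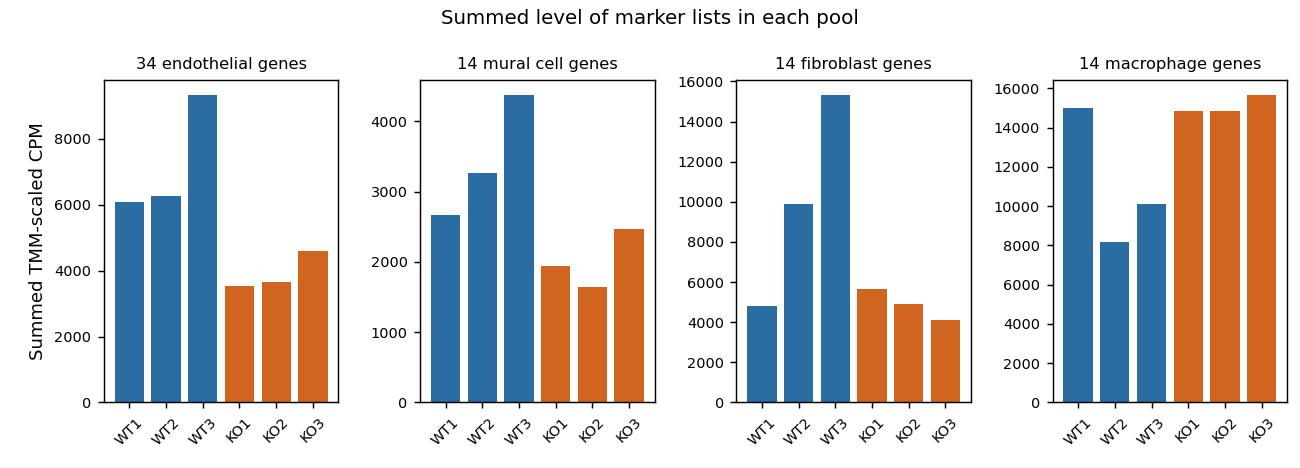
Summed TMM-scaled CPM of the 34 endothelial genes and of 14 mural cell, 14 fibroblast and 14 macrophage genes in each pool, with WT pools in blue and KO pools in orange and a separate axis for each panel. Endothelial and mural bars are higher in all WT pools than in any KO pool, while WT pool 1 lies among the KO pools for fibroblast and macrophage genes.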

How the data were processed

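RNA-seq was done on 6 libraries, 3 WT and 3 KO, each a pool of hearts. The authors deposited whole-number read counts per Ensembl gene for each library, and the submitters' processing notes list STAR, HTSeq, DESeq2 and the build GRCm38, without versions. Which annotation release and which strand setting were used for counting is not given in the sources used here. Reads without a feature (5.90 to 8.62% of all reads in the tables), ambiguous reads and reads with several alignments were left out of library sizes. Symbols came from GENCODE M21, which held 55227 of the 55487 identifiers.

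The counts were tested with edgeR 4.0.16 in R 4.3.3 (filterByExpr with a minimum count of 10, TMM scaling, quasi-likelihood F test, two-sided, Benjamini-Hochberg adjustment over 15707 genes, threshold 0.05). The SE of a log2 fold change is its size over the square root of F. TPM used the union of exons. The procedure was tested on simulated data. Alternatives were DESeq2 1.42.0, limma-voom 3.58.1, RLE scaling, no filter, a mean CPM of at least 5, a replicate block and leaving out each pool. All 34 genes are named, with, of each other list, up to 4 genes of smallest unadjusted p and a mean CPM of at least 1. The members and the lists were chosen with earlier results of these data known. Figures were drawn with matplotlib 3.10.9.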

Additional observations from a re-analysis of the deposited data

How the results depend on the processing

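All 34 endothelial genes kept a negative log2 fold change under every alternative run. The number of all genes called was 2 in edgeR, 785 in DESeq2, 1 in limma-voom and 782 without the expression filter, and ranged from 1 to 1338 when 1 pool was left out, the highest being without WT pool 1. Of the 34 genes, 26 were called in DESeq2 and 26 without the filter, and from 0 to 20 when 1 pool was left out, the highest again without WT pool 1. The cause was not tested. The median of the 34 ranged from -0.96 to -0.92 over the other settings and from -1.18 without KO pool 3 to -0.65 without WT pool 3. Across all genes tested, same-numbered pools did not deviate together (r = 0.0968, -0.1597 and 0.006), and not every pool correlated best with its own number. Within the set of 34, pool 3 was the highest WT pool for 34 genes and the highest KO pool for 32. Because these genes varied together between pools, their number adds no weight for a pairing of the pools. With a replicate block, 3 genes and 0 of the 34 were called in edgeR. Adjusted p-values of the 34 in that fit ranged from 0.05007 to 0.3075, so the lowest lay just above the threshold.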
